A study of Mus musculus with 10 samples.

Results

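The genes described here encode cytokines of the interleukin-6 (IL-6) family, their receptors, the transcription factor STAT3 and its feedback inhibitor SOCS3. All 10 genes chosen by symbol (Il6, Lif, Il11, Clcf1, Osmr, Il6ra, Il6st, Lifr, Stat3 and Socs3) were found among 55359 genes in a table of kidney transcripts from male mice. The IRI group held 5 libraries from mice whose kidney was made ischaemic for 30 min and then reperfused for 24 h, which the sample titles call AKI (acute kidney injury). The sham group held 5 libraries from mice after sham surgery, which the titles call Ctrl. The series title concerns dietary methionine deprivation, but the labels give no diet, strain, age, genotype or sham interval, and no agent or allele is named for either group. Ischaemia and reperfusion stop and then restore renal blood flow, and mainly injure the proximal tubule. The libraries measured poly(A) RNA of kidney tissue, so a transcript cannot be assigned to a cell type, and fewer cells of a type and less RNA per cell cannot be told apart.

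IL-6 family cytokines signal through gp130, the shared receptor encoded by Il6st. IL-6 binds IL-6 receptor alpha (Il6ra) and IL-11 its own alpha chain (Il11ra1), and each complex then recruits gp130. LIF signals through a pair of gp130 and the LIF receptor (Lifr), and oncostatin M in the mouse mainly through gp130 paired with OSMR. CLCF1 acts through CNTFR, LIFR and gp130. These receptors carry Janus kinases, which phosphorylate STAT3, and active STAT3 induces Socs3, whose product binds gp130 and the kinases and limits the signal. Transcript levels do not report the phosphorylation of STAT3, which was not measured.

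Promoter sequences are shown for 3 ligand genes and the feedback gene, the members of largest fold increase. The RefSeq promoter table (build GRCm38.p6, 250 bases before to 50 after each start site) held 9 of the 10 members with 11 promoters, all but Clcf1. The 250 bases before the start are printed 5′ to 3′ on the gene's strand, and capitals mark matches to any of 4 motifs searched on both strands over the whole window.
Il6 (chr5:30012864-30013113, + strand): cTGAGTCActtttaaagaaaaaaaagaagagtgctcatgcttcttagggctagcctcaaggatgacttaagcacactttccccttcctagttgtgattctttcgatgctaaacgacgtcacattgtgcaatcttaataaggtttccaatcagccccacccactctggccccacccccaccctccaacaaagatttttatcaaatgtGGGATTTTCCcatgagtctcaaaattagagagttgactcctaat
Lif (chr11:4257318-4257567, + strand): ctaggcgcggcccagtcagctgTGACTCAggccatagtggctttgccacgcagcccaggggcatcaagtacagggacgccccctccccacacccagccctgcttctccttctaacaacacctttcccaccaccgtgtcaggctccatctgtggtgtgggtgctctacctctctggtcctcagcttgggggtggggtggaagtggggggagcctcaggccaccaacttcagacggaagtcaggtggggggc
Il11 (chr7:4778142-4778391, − strand, 1 of 2 listed promoters): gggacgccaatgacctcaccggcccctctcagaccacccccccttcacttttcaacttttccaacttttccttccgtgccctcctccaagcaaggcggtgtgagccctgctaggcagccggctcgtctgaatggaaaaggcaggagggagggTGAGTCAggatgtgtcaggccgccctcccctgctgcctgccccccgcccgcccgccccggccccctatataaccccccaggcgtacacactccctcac
Socs3 (chr11:117969367-117969616, − strand): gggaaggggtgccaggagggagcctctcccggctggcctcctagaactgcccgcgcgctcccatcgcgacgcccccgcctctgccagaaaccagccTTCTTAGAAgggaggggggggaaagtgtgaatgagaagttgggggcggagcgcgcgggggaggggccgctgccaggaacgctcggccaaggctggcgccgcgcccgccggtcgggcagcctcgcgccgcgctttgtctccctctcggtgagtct
The Socs3 promoter held TTCTTAGAA, with its first base at -154 from the start site, a match to TTCNNNGAA, a pair of half-sites of the kind that STAT dimers bind. It was the only 1 of the 11 member promoters with that motif, which 8.3% of 32851 promoters hold, and no member promoter matched the stricter TTCCNGGAA (1.15% of all promoters), each match of which is also one of the first motif. TGANTCA, the AP-1 motif, was in 4 member promoters, those of Il6 (at -249), Lif (at -228), Il11 (at -98) and Osmr (at 4, past the start site), against 7.81% of all promoters. The NF-kB motif searched, GGG, any 2 bases and TTTCC, was in the Il6 promoter alone among the 11, as GGGATTTTCC at -44, and in 1.63% of all promoters. AP-1 and NF-kB motifs were added to the search after the sequences had been seen. These matches describe letters in a window and not bound sites.

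Library totals were 13147899 to 17307039 counts in IRI and 13199234 to 18603272 in sham, and no 2 libraries of either group were alike enough to be 1 library deposited again. IRI replicate 1 stood apart. Mitochondrial rRNA took 2.31% of counts in that library and 0.214% to 0.450% in the other IRI libraries. Markers of the kidney were present in both groups. The summed FPKM of 8 proximal tubule markers was 218 to 1128 in IRI and 2930 to 3473 in sham, that of 4 podocyte markers was 127 to 154 in IRI and 50.1 to 83.9 in sham, and 6 tubular injury markers summed to 1840 to 2904 in IRI and 5.38 to 10.4 in sham. Lcn2, 1 of the 6 injury markers, alone had 852 to 2226 FPKM in IRI and 0.23 to 1.86 FPKM in sham. It is also among the STAT3 target genes below, so the 2 results share that gene. The highest of the 5 IRI proximal tubule sums was that of replicate 1, and the next was 557.

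Of the 10 members, 8 were higher in IRI, 1 was lower and 1 was not called by edgeR's quasi-likelihood test (adjusted p under 0.05). All 4 ligands, the alpha chain Il6ra, the receptor Osmr, Stat3 and Socs3 rose. Il6st did not pass the test, and Lifr fell slightly by a call that most alternatives did not keep. Over all 22543 genes tested, 52.1% were called, 27.2% higher and 24.9% lower. The 8 members that rose had every IRI library above every sham library, and no member lay wholly below. Over all genes tested 40.0% separated in this way, 26.1% above sham and 13.9% below. The median log2 fold change was 2.96 over the members and 0.05 over all genes tested. The members were chosen with earlier results of these data known, so these contrasts with all genes are descriptive.

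**Figure D1:**
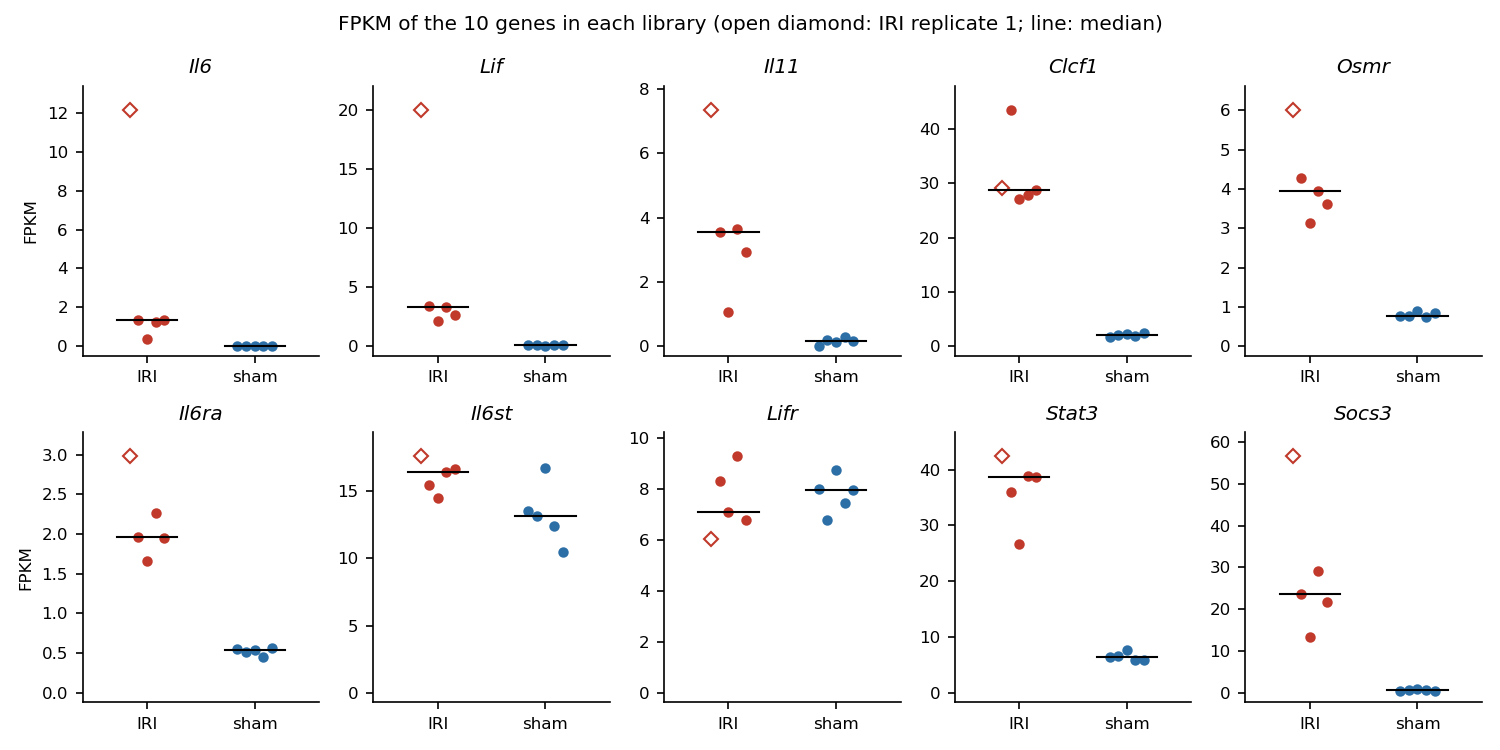
FPKM (counts scaled by exonic length and library total) of each gene in the 5 IRI and 5 sham libraries, 1 point a library, with a line at the median and IRI replicate 1 as an open diamond. All IRI points lie above all sham points except for Il6st and Lifr, and IRI replicate 1 is the highest IRI point in 8 of the 10 genes.

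The ligands were nearly silent in sham kidneys, apart from Clcf1. In the deposited coordinates (GRCm39) they lie on chromosome 5 at 30218112 to 30224979 (Il6), chromosome 11 at 4207557 to 4222514 (Lif), chromosome 7 at 4775372 to 4785858 (Il11) and chromosome 19 at 4264292 to 4273544 (Clcf1). Il6, the founding cytokine of the family, had 480, 44, 16, 51 and 56 counts in IRI replicates 1 to 5, against 0 counts in each of the 5 sham libraries. It was detected in all IRI libraries, with replicate 1 far above the rest. Scaled by library totals, Il6 was at least 213-fold higher in IRI than a floor set at 3 counts summed over sham, and at least 68.9-fold without IRI replicate 1 (adjusted p = 0.00131 by edgeR, 2.98e-05 without that replicate).

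Lif, the cytokine best known for keeping mouse embryonic stem cells undifferentiated, had 20.1, 3.46, 2.18, 3.34 and 2.69 FPKM in IRI replicates 1 to 5, against 0.11, 0.11, 0.07, 0.14 and 0.12 FPKM in sham replicates 1 to 5. The groups did not overlap, and the lowest IRI value was many times the highest sham value. Its log2 fold change was 5.65 ± 0.75 (SE; edgeR adjusted p = 2.35e-05), and 4.44 ± 0.25 without IRI replicate 1 (adjusted p = 9.54e-09).

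Il11, a cytokine studied in tissue fibrosis, had 7.35, 3.55, 1.06, 3.66 and 2.94 FPKM in IRI replicates 1 to 5, against 0, 0.21, 0.15, 0.29 and 0.17 FPKM in sham. Again replicate 1 was highest and no library of the groups overlapped, although IRI replicate 3 was the lowest of its group. Il11 rose by 4.27 ± 0.58 on the log2 scale (edgeR adjusted p = 2.96e-05).

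Clcf1, the cardiotrophin-like ligand, behaved differently within the IRI group. It had 29.1, 43.5, 27.1, 27.8 and 28.8 FPKM in IRI replicates 1 to 5, against 1.68, 2.13, 2.29, 1.97 and 2.44 FPKM in sham. Replicate 1, the extreme library for Il6 and Lif, lay among the others here, and replicate 2 was high. The rise of Clcf1 was 12.7-fold, a log2 fold change of 3.66 ± 0.16 (edgeR adjusted p = 1.75e-09), and its coefficient of variation in IRI was 22.1%, against 150% for Il6, 121% for Lif and 61.6% for Il11. A same-strand gene that overlaps nearly all of Clcf1 (AC109138.7) held 3 counts over the IRI libraries and 0 over the sham libraries. An unnamed gene on the opposite strand, which overlaps 87 bases of Clcf1, held 93 and 6 counts, against 9416 and 642 of Clcf1.

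Clcf1 was the most abundant member ligand per length in every library. Of the summed per-length level of the 4 ligands it held 42.4%, 83.9%, 88.2%, 77.2% and 80.4% in IRI replicates 1 to 5, against 93.9%, 87.0%, 91.4%, 82.1% and 89.1% in sham. In IRI replicate 1, Lif held 29.2% and Il6 17.7% of that sum, whereas in the other IRI libraries Lif held 6.67% to 9.27% and Il6 1.24% to 3.83%.

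The receptors split into those that rose and those near their sham level. Osmr, the oncostatin M receptor, had 6.02, 4.28, 3.13, 3.95 and 3.62 FPKM in IRI replicates 1 to 5, against 0.77, 0.78, 0.89, 0.75 and 0.84 FPKM in sham. Every IRI value was more than 3 times the highest sham value. The log2 fold change was 2.17 ± 0.17, or 4.50-fold (edgeR adjusted p = 2.94e-07).

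Il6ra, the IL-6 binding chain, had 2.98, 1.96, 1.66, 2.27 and 1.95 FPKM in IRI replicates 1 to 5, against 0.55, 0.51, 0.54, 0.45 and 0.56 FPKM in sham. It too separated the groups, with the lowest group mean of all members in IRI (2.16 ± 0.50 FPKM, SD, n = 5). Its rise was 1.83 ± 0.18 on the log2 scale, or 3.56-fold (edgeR adjusted p = 1.66e-06). Il6ra is also made by leukocytes, whose markers are given below.

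Il6st, the shared gp130 chain, had 17.6, 15.4, 14.5, 16.4 and 16.6 FPKM in IRI replicates 1 to 5, against 13.5, 13.1, 16.7, 12.4 and 10.4 FPKM in sham. The groups overlapped because sham replicate 3 lay among the IRI values. With TMM factors, which scale libraries on the bulk of their genes, the log2 fold change was 0.06 ± 0.12 (edgeR adjusted p = 0.718), with 0.28 ± 0.12 under library totals (adjusted p = 0.0606) and 0.28 by limma on log2(FPKM + 1) (adjusted p = 0.0477), while it turned to -0.02 without IRI replicate 1 or without sham replicate 5. Library totals raised the log2 fold changes of all genes by a median of 0.23, so relative to the other genes Il6st stayed near 0 on either scale.

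Lifr, the LIF receptor, had 6.02, 8.28, 7.09, 9.27 and 6.78 FPKM in IRI replicates 1 to 5, against 7.99, 6.79, 8.73, 7.45 and 7.93 FPKM in sham. The ranges overlapped widely, and IRI held both the highest and the lowest value. Its log2 fold change of -0.28 ± 0.11 just passed the test (edgeR adjusted p = 0.0416). That call was lost under library totals (-0.06, adjusted p = 0.727), by limma on log2(FPKM + 1) (-0.06, adjusted p = 0.682) and on leaving out any 1 of 7 libraries, namely IRI replicates 1, 3 and 5 and sham replicates 1, 3, 4 and 5 (-0.30 to -0.25, adjusted p = 0.0615 to 0.0851 in IRI, and 0.0612 to 0.0833 in sham). Library totals called 55.0% of all genes tested, 35.9% higher and 19.1% lower. The median log2 fold change of all genes was 0.28 under library totals and 0.05 with TMM factors. Lifr thus lay below that median on either scale. The cause of its loss of call under library totals was not tested.

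**Figure D2:**
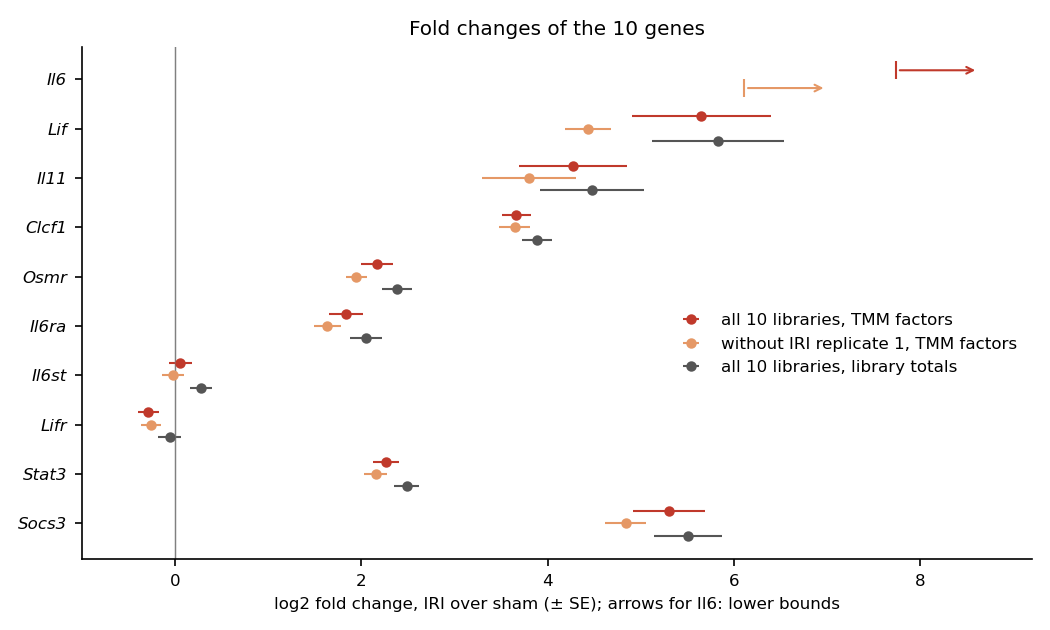
Log2 fold changes of IRI over sham with standard errors for 9 genes, fitted with TMM factors on all 10 libraries, without IRI replicate 1, and with library totals. For Il6, which has 0 sham counts, ticks with arrows mark lower bounds of 213-fold and 68.9-fold. Il6st and Lifr lie near 0 in all 3 fits, and the other plotted genes lie from 1.64 (Il6ra without IRI replicate 1) to 5.83 (Lif with library totals).

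Levels within each library were set against each other, since a ratio of genes does not depend on how the library was scaled. Of 6 ratios, 5 differed between the groups in an exact permutation test (two-sided) over the 252 possible assignments of libraries. Each had the smallest p the design allows (exact permutation p = 0.00794, adjusted p = 0.00952, n = 5 each). In each of the 5, the first gene named had already separated the groups by itself. These tests are therefore not independent of the results for single genes. The ratio of Osmr to Lifr, the chains that compete for gp130, was 1.00, 0.516, 0.441, 0.426 and 0.534 in IRI replicates 1 to 5, against 0.0960, 0.114, 0.101, 0.101 and 0.105 in sham. The sham values sat in a narrow band and every IRI value was over 3 times the highest of them. The difference was 2.42 ± 0.23 on the log2 scale (SE), or 5.35-fold, and the groups did not overlap. Osmr and Lifr are neighbours on chromosome 15, 216 kb apart in the deposited coordinates (GRCm39), with Osmr at 6843058 to 6904450 and Lifr at 7120095 to 7226970.

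Osmr and Il6ra both gained on gp130. Osmr to Il6st was 0.216 to 0.343 in IRI (median 0.241) and 0.0531 to 0.0802 in sham (median 0.0592), a 4.16-fold difference. Il6ra to Il6st was 0.115 to 0.169 in IRI and 0.0326 to 0.0535 in sham, a 3.33-fold difference. Il11ra1, the IL-11 alpha chain, moved the other way, with a ratio to Il6st of 0.614 to 0.867 in IRI and 1.01 to 2.15 in sham (log2 difference -1.08 ± 0.20). Lifr to Il6st was 0.342 to 0.565 in IRI and 0.517 to 0.761 in sham, and its log2 difference of -0.36 ± 0.17 did not pass the test (exact permutation p = 0.0556, adjusted p = 0.0556).

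**Figure D3:**
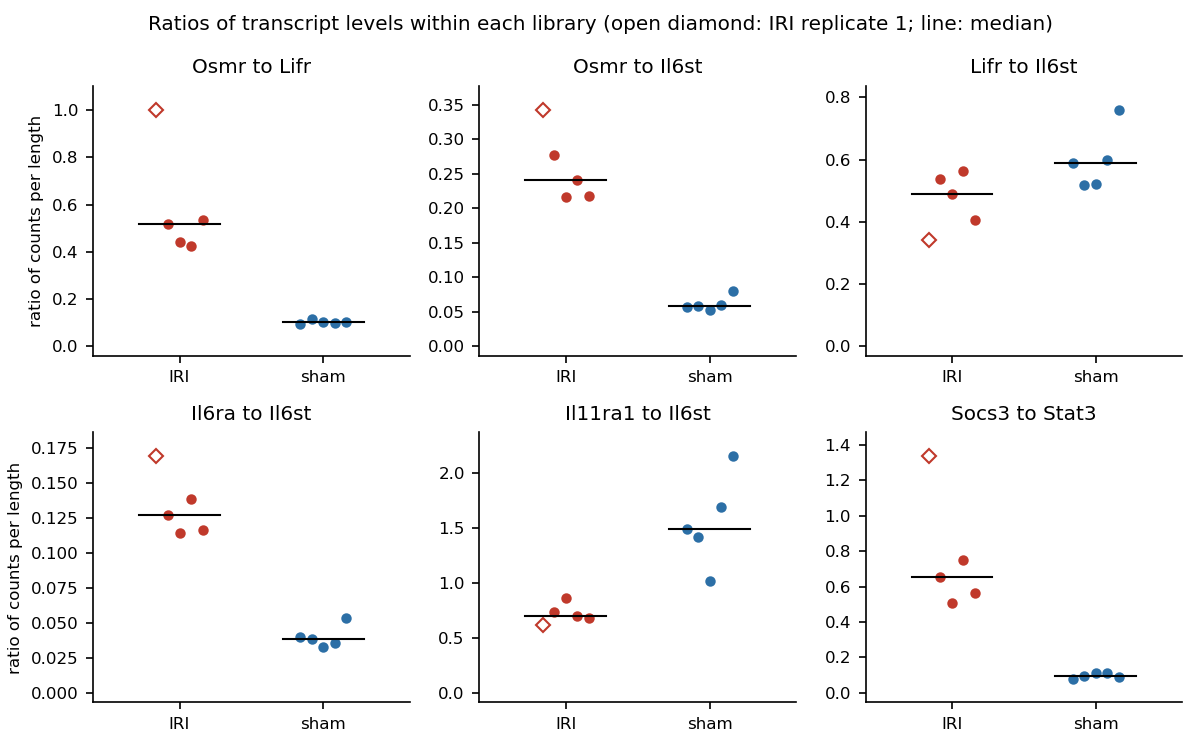
Ratios of counts per exonic length between pairs of genes within each library, 1 point a library, with a line at the median and IRI replicate 1 as an open diamond. IRI and sham points separate in 5 of the 6 panels and overlap in that of Lifr to Il6st.

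Stat3, the transcription factor, had 42.4, 36.0, 26.6, 38.9 and 38.8 FPKM in IRI replicates 1 to 5, against 6.38, 6.61, 7.76, 5.86 and 5.95 FPKM in sham. It was the member of highest mean level in IRI (36.5 ± 5.98 FPKM, SD, n = 5), although its range overlapped that of Clcf1, the next in order. Stat3 rose 4.80-fold, a log2 change of 2.26 ± 0.14 (edgeR adjusted p = 3.13e-08). In the deposited coordinates (GRCm39, chromosome 11) Stat3 at 100775924 to 100830366 shares its last 72 bases with the end of Stat5a at 100750177 to 100775995 on the opposite strand, and the sources used here do not say whether counting used strand. Stat5a had 2100 counts over the IRI libraries and 2006 over the sham libraries, against 28001 and 4965 of Stat3, and Stat5a was not called (log2 fold change -0.18, or 0.05 under library totals).

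Socs3, the feedback inhibitor, had 56.6, 23.6, 13.4, 29.1 and 21.8 FPKM in IRI replicates 1 to 5, against 0.49, 0.61, 0.86, 0.66 and 0.54 FPKM in sham. Its lowest IRI value was over 10 times the highest sham value, and replicate 1 was again the highest. The increase was 39.5-fold, or 5.30 ± 0.39 on the log2 scale (edgeR adjusted p = 1.37e-07), and 4.84 ± 0.22 without IRI replicate 1 (adjusted p = 2.50e-09). Socs3 increased more than Stat3. The ratio of Socs3 to Stat3 was 1.33, 0.654, 0.504, 0.748 and 0.563 in IRI, against 0.0766, 0.0928, 0.111, 0.112 and 0.0911 in sham, a 7.45-fold difference (log2 difference 2.90 ± 0.27, exact permutation p = 0.00794, adjusted p = 0.00952, n = 5 each).

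The order of levels changed between the groups. In sham kidneys Il6st (13.2 ± 2.26 FPKM, SD, n = 5) and Lifr (7.78 ± 0.72) came first and did not overlap each other, followed by Stat3 (6.51 ± 0.76), which overlapped Lifr. Socs3 ranked 6 in sham (0.63 ± 0.14 FPKM) but 3 in IRI (28.9 ± 16.5 FPKM), where Stat3, Clcf1, Socs3 and Il6st formed a run of overlapping neighbours. Il6st and Lifr did not overlap in IRI either, and below Lifr each IRI member overlapped the next.

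The genes whose profiles were most like that of Socs3 over the 10 libraries, by root mean square difference of log2(FPKM + 1) after subtracting the sham mean, were Grp (0.23), Klf6 (0.24) and Atf3 (0.34) among 13325 genes of at least 1 FPKM on average. Grp encodes gastrin-releasing peptide, and Klf6 and Atf3 encode stress-induced transcription factors. Nearest to Osmr were Itgav, an integrin chain (0.08), Pmepa1 (0.11) and Tirap, an adaptor of Toll-like receptors (0.12). These distances are descriptive, and the libraries share their division into groups.

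Within the IRI group, the same libraries were often at the extremes. In FPKM, IRI replicate 1 was the highest IRI library for 8 members and IRI replicate 3 the lowest for 9 of the 10, with the same counts on TMM-scaled counts. The exceptions to a high replicate 1 were Clcf1 and Lifr. Replicate 1 stood above the median of the other IRI libraries 9.34-fold for Il6 and 6.65-fold for Lif, but 2.27-fold for Il11, 2.50-fold for Socs3, 1.59-fold for Osmr, 1.53-fold for Il6ra, 1.13-fold for Stat3 and 1.10-fold for Il6st. Clcf1 was level with the others (1.03-fold) and Lifr was below them (0.783-fold).

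Other pathway genes set replicate 1 apart as well, named here after their values were seen. The fibrinogen chain genes Fga, Fgb and Fgg, acute phase genes that STAT3 induces in liver, were 6.37-fold, 11.5-fold and 6.48-fold above the median of the other IRI libraries, and Fos was 5.11-fold above. Summed FPKM of 8 neutrophil markers was 108 in IRI replicate 1 and 23.8 to 80.7 in the other IRI libraries, against 1.08 to 3.34 in sham. Summed FPKM of 10 monocyte and macrophage markers was 50.6 in IRI replicate 1 and 67.6 to 116 in the others, against 44.3 to 73.5 in sham, and that of 7 fibroblast and pericyte markers was 66.5 in IRI replicate 1 and 155 to 241 in the others, against 48.0 to 67.0 in sham. All 8 neutrophil markers were called higher. Of the monocyte and macrophage markers, 2 of 10 were called higher and 3 lower (median log2 fold change -0.34). Of the fibroblast and pericyte markers 2 of 7 were called higher and 1 lower (median 0.77). Over all genes tested 27.2% were higher and 24.9% lower. Most markers of either list were thus not called higher, which holds for all genes tested as well. The part of these cells in the levels of Il6, Lif, Il6ra and Socs3 was not tested.

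**Figure D4:**
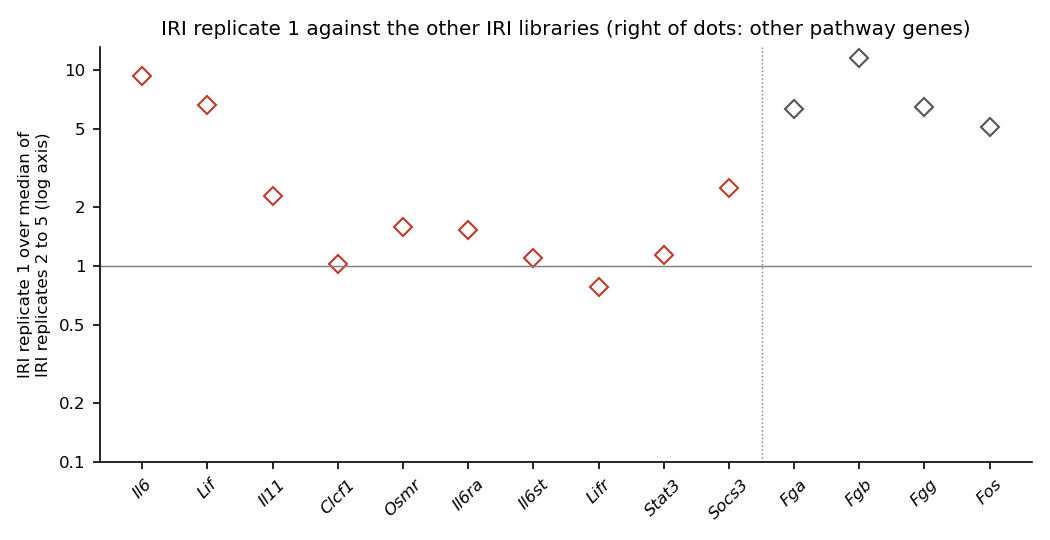
Level of each gene in IRI replicate 1 divided by the median of IRI replicates 2 to 5, on a log axis, for the 10 genes and, right of the dotted line, 4 pathway genes picked after their values were seen. Il6 (9.34) and Lif (6.65) stand far above 1, while Clcf1 (1.03) lies at 1 and Lifr (0.783) below.

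The other genes of the pathway were taken from 6 lists with 66 genes, chosen with earlier results of these data known. Of 64 tested, 37 were higher and 5 lower, and 22 did not pass. Their median log2 fold change was 0.69. Over all genes tested, as given for the members, 27.2% were higher and 24.9% lower.

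Among 6 other ligand genes, 1 of 5 tested rose and 4 were not called, while 27.2% of all genes tested were higher. Osm, which encodes oncostatin M and lies 16.5 kb from Lif on chromosome 11, stayed low, with 0.17 to 0.65 FPKM in IRI and 0 to 0.09 FPKM in sham. It rose by 2.88 ± 0.82 (edgeR adjusted p = 0.00928), by 3.90 without sham replicate 2, and was no longer called without IRI replicate 1 and sham replicate 3 together (2.00, adjusted p = 0.0583). Cardiotrophin 1 (Ctf1, log2 fold change -0.51), ciliary neurotrophic factor (Cntf, 0.73) and the IL-27 chains (Il27, 1.10, and Ebi3, -0.90) did not pass the test, and Il31 had too few counts to be tested. Cntf was called under library totals (adjusted p = 0.0236) and by limma on log2(FPKM + 1) (adjusted p = 0.00545), and without sham replicate 2 (adjusted p = 0.0327). Ebi3 was called lower without IRI replicate 5 (adjusted p = 0.0407).

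The remaining receptor chains did not rise. Il11ra1 had 10.8, 11.3, 12.5, 11.4 and 11.3 FPKM in IRI replicates 1 to 5, against 20.1, 18.6, 16.9, 21.1 and 22.4 FPKM in sham. All IRI values lay below all sham values, and the log2 fold change was -1.02 ± 0.10 (edgeR adjusted p = 1.28e-06). Its ligand gene Il11 rose in the same kidneys. Near-identical copies of Il11ra1 held 4 counts (Il11ra2) and 0 counts (Gm13305) over the IRI libraries and 0 over the sham libraries, and 6 other genes overlap the Il11ra1 locus in the deposited coordinates, so reads may have been lost or shared there. Cntfr, the alpha chain for CNTF and CLCF1, had 0.37 to 0.68 FPKM in IRI and 1.14 to 2.01 FPKM in sham, with no overlap (log2 fold change -1.83 ± 0.26, edgeR adjusted p = 4.59e-05). Il27ra (-0.93) and Il31ra (0.70) were not called, although Il27ra was called lower without IRI replicate 3 (adjusted p = 0.0373) or sham replicate 3 (adjusted p = 0.0456). ADAM10 and ADAM17 shed the IL-6 receptor from cells. Adam10 was called higher by 0.31 ± 0.12 (edgeR adjusted p = 0.0376), a call that DESeq2 (adjusted p = 0.0626) did not make and that leaving out any 1 of 7 libraries ended (IRI replicates 3, 4 and 5 and sham replicates 1, 2, 4 and 5, with 0.26 to 0.32, and adjusted p = 0.0542 to 0.0982), and Adam17 was not (-0.02, or 0.21 under library totals).

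Among 9 Janus kinase and other STAT genes, 4 were higher, 1 lower and 4 not called. Over all genes tested 52.1% were called, 27.2% higher and 24.9% lower, so the share called in this list is near that of all genes. The list's median log2 fold change was 0.17, against 0.05 over all genes tested. Jak3, a kinase known mainly from lymphocytes, had 7.03 to 10.1 FPKM in IRI and 1.92 to 3.10 FPKM in sham, with no overlap (log2 fold change 1.57 ± 0.15, edgeR adjusted p = 1.12e-06). Summed FPKM of 8 T and NK cell markers was 0.23 to 0.80 in IRI and 1.93 to 3.15 in sham, and that of 6 B and plasma cell markers was 1.34 to 3.44 in IRI and 5.16 to 8.99 in sham. The neutrophil marker sums given above were higher in IRI, with 8 of 8 markers called higher. The part of any of these cells in the level of Jak3 was not tested. Of the other kinase genes, Jak1 (0.52 ± 0.12) and Jak2 (0.47 ± 0.11) rose less, with edgeR adjusted p of 0.00303 and 0.00311. Tyk2 did not pass the test (edgeR adjusted p = 0.146). Stat2 (0.40) was higher, and was not called without IRI replicate 1 and sham replicate 3 together (0.26, adjusted p = 0.101). Stat5b (-0.35) was called lower, but not under library totals (-0.12, adjusted p = 0.345) or by limma on log2(FPKM + 1) (-0.10, adjusted p = 0.328). Stat6 (0.17), Tyk2 (0.16) and Stat5a were not called with TMM factors, and Stat6 (0.40) and Tyk2 (0.39) were called under library totals.

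Of 13 other feedback genes and inhibitors, 7 were higher, 1 lower and 5 not called. Over all genes tested 27.2% were higher and 24.9% lower. Socs2, a relative of Socs3 best known for limiting growth hormone signals, had 10.3, 6.54, 4.26, 6.70 and 7.07 FPKM in IRI replicates 1 to 5, against 1.19, 2.18, 1.87, 1.19 and 2.66 FPKM in sham. The groups did not overlap and the log2 fold change was 1.72 ± 0.26 (edgeR adjusted p = 6.82e-05). The phosphatase genes Ptpn1 (0.76 ± 0.10) and Ptpn11 (0.69 ± 0.11), Socs6 (0.67 ± 0.11) and Pias3, an inhibitor of STAT3 (0.63 ± 0.11), rose by less. Ptpn6, a phosphatase mainly of blood cells, fell (-0.79 ± 0.13), with edgeR adjusted p of 0.000146. Cish (0.18), Socs7 (0.21) and Socs5 (0.23) were not called, although library totals called Socs7 (0.43) and Socs5 (0.45) higher, and Socs5 was called without sham replicate 3 (adjusted p = 0.039).

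The largest list held 32 genes described as induced by STAT3 in various cells, many of which answer to other factors too. Of 31 tested, 24 were higher, 1 was lower and 6 did not pass, against 27.2% higher and 24.9% lower over all genes tested. The list's median was 1.42 on the log2 scale and that of all genes tested 0.05. In 24 genes all IRI values lay above sham and in 1 below, against 26.1% above and 13.9% below over all genes tested. Like the other lists, this one was chosen with earlier results of these data known. Lcn2, which encodes the iron-binding injury marker NGAL, had the largest fitted fold in the list, with 1269, 1618, 852, 2226 and 1556 FPKM in IRI replicates 1 to 5, against 1.21, 0.23, 1.86, 1.13 and 1.24 FPKM in sham (log2 fold change 10.16 ± 0.48, edgeR adjusted p = 3.91e-09). Timp1, a protease inhibitor, had 27.3 to 50.3 FPKM in IRI and 0 to 1.02 FPKM in sham (6.42 ± 0.38, or 7.10 without sham replicate 5). In Lcn2 and Timp1, unlike in Il6 and Lif, IRI replicate 1 was not the highest IRI library.

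Fgg, the fibrinogen gamma chain gene, had 226, 31.9, 49.2, 37.9 and 30.5 FPKM in IRI replicates 1 to 5, against 2.89, 3.93, 3.03, 4.27 and 2.85 FPKM in sham. The groups were far apart even without replicate 1, and the log2 fold change was 4.28 ± 0.59 (edgeR adjusted p = 3.12e-05), or 3.19 without that replicate. Fgb rose by 5.07 ± 0.87 (edgeR adjusted p = 0.000242), or 3.37 without IRI replicate 1, and Fos by 3.65 ± 0.63 (adjusted p = 0.000255), or 2.57 without it. Vegfa, the angiogenic factor made by podocytes and tubules, was the gene that fell, with 66.7, 36.0, 44.2, 32.0 and 38.2 FPKM in IRI, against 86.2, 112, 86.9, 102 and 117 FPKM in sham (-1.43 ± 0.20, edgeR adjusted p = 4.39e-05). Pim3 (-0.25), Ccnd1 (-0.05, or 0.19 under library totals) and Birc5 (0.64) were not called, the last called higher without IRI replicate 1 (0.75, adjusted p = 0.0426) and under library totals (0.88, adjusted p = 0.0252). Without IRI replicate 1, 52.0% of 22136 genes tested were called, 26.7% higher and 25.3% lower, and without that library and sham replicate 3 together 52.5% of 21739 were called, 26.5% higher and 26.0% lower.

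**Figure D5:**
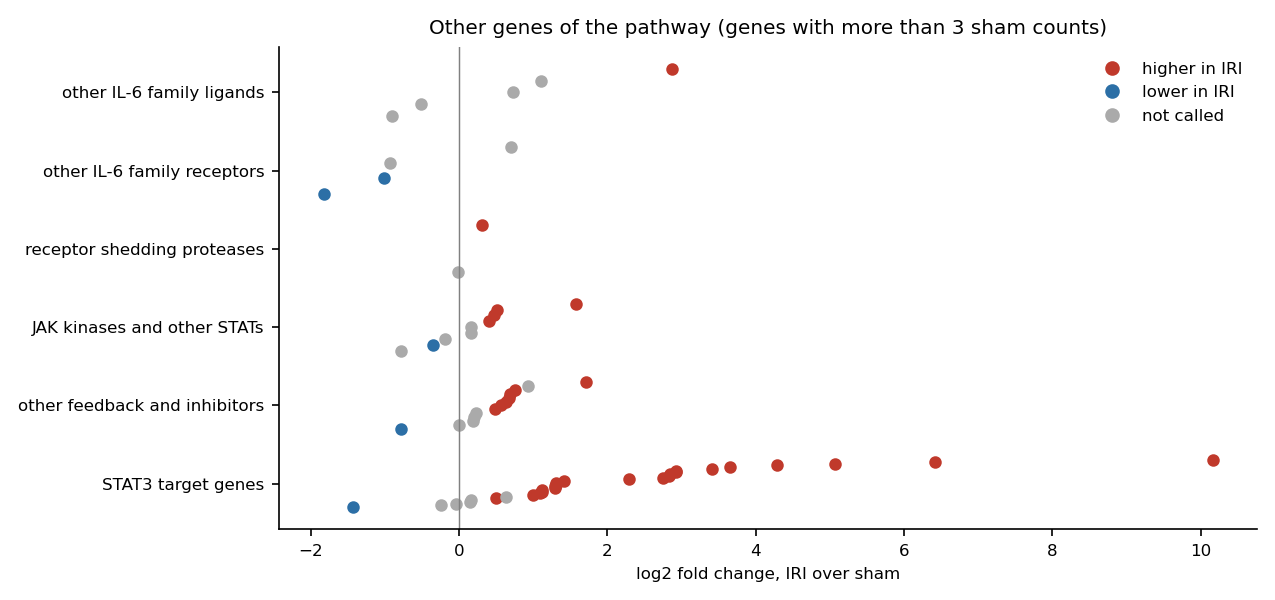
Log2 fold changes of IRI over sham (TMM factors) for the tested genes of the 6 lists with more than 3 counts over the sham libraries, 1 point a gene, red for higher, blue for lower and grey for not called. The STAT3 target genes spread furthest to the right, to 10.16 for Lcn2, while the other receptors lie mostly left of 0.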

How the data were processed

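Poly(A) RNA of kidney was measured in 10 libraries (1 µg of total RNA per library, paired reads of 150 bases, per the labels' protocols). The submitters' processing notes name cutadapt 1.9.1, HISAT2 2.0.1, HTSeq 0.6.1 and GRCm39, without roles or settings. The authors deposited whole-number counts and FPKM per gene; recomputing FPKM from counts, exonic lengths and library totals gave the deposited value for 100% of entries (tolerance 0.005 FPKM or 0.1%). Symbols were attached by Ensembl gene id from a separate reference and were found for 52083 of 55359 genes.

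Genes with at least 10 counts over the 10 libraries (22543) were tested with edgeR 4.0.16 (R 4.3.3, TMM factors, quasi-likelihood test, Benjamini-Hochberg adjustment). Its standard errors are the absolute log2 fold change over the root of F, and the code was tested on simulated data. This filter let all 10 members in; 9 of them pass 1 FPKM in 5 libraries, an alternative. Alternatives also included limma 3.58.1, DESeq2 1.42.0, other scalings, pseudocounts of 1 and 0.1 FPKM, and leaving out libraries. Ratios, from counts per length, were tested by permutation (SciPy 1.17.1). Members and lists were chosen with earlier results of these data known. Some pathway genes are not reported here and were left out of the lists and their counts. Lists of up to 7 genes are named in full, larger ones by up to 5 called genes of largest fold each way (mean of at least 1 FPKM) and up to 3 uncalled. Nothing states that libraries come from separate mice, and p-values then reflect only the spread among these libraries, which may be technical. The floor of 3 counts covers counting error only. Equal replicate numbers did not pair the samples.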

Additional observations from a re-analysis of the deposited data

Results flagged for a closer look

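A single library stood far from the other 4 of its group in 5 of 32 sets of values. The gap was more than 0.71 of the group's range, which chance gives in about 1 in 20 groups of independent normal values. These sets were FPKM or ratios that share genes and libraries, so that rate is only a rough guide. Il6 was at 12.2 FPKM in IRI replicate 1, against 0.38 to 1.38 FPKM in the other IRI libraries, and Lif at 20.1 FPKM, against 2.18 to 3.46 FPKM. The ratio of Osmr to Lifr was 1.00 in the same library, against 0.426 to 0.534 in the other IRI libraries. Clcf1 was at 43.5 FPKM in IRI replicate 2, against 27.1 to 29.1 FPKM in the others. The ratio of Osmr to Il6st was 0.0802 in sham replicate 5, against 0.0531 to 0.0604 in the other sham libraries.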

How the results depend on the processing

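The 8 members that rose kept that call under every alternative that gave them an adjusted p; Il6 was not tested with the filter of 1 FPKM in 5 libraries and Lif had no adjusted p from DESeq2, so each called 7, and limma called 9 with Il6st. Of the 6 ratios, 5 kept their call except under the replicate block. The number of members called lower, 1 (Lifr), was 0 under library totals, with no filter, with the replicate block in edgeR (Lifr -0.30, adjusted p = 0.0809), without IRI replicate 1 and sham replicate 3 together (chosen after seeing the data), and by limma with either pseudocount; leaving out 1 library gave 0 to 1. For the ratios the replicate block was a sign-flip test over 5 pairs, which cannot pass the threshold, and gave adjusted exact p = 0.075 for Osmr to Lifr (2.42), Osmr to Il6st (2.06), Il6ra to Il6st (1.73), Il11ra1 to Il6st (-1.08) and Socs3 to Stat3 (2.90). Samples of equal number did not deviate together (correlations -0.208 to 0.0586). Lifr to Il6st passed the threshold with medians (-0.27, adjusted exact p = 0.0476) and, among differences of -0.44 to -0.26 when 1 library was left out, without IRI replicate 4, sham replicate 2 or sham replicate 3. Il6 in IRI replicate 3 rests on 16 counts, and log2(FPKM + 1) understates the folds of Il6, Lif and Il11 (1.57, 2.29 and 1.88). The causes of lost calls were not tested.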
